A study of Homo sapiens with 9 samples.

Results

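The genes described here are 38 genes of the unfolded protein response and of protein folding in the endoplasmic reticulum (ER), matched by symbol or Ensembl identifier among the 19569 genes of the count table. All 38 had counts and entered the test, and 34 of them had at least 100 counts in every library. The smallest count of any of them in any library was 35, for SDF2L1. They were measured by mRNA sequencing in Jurkat clone E6-1, an established human T lymphoblast line, in 3 groups of 3 libraries. The 0 h group was non-activated. The 5 h and 12 h groups were kept for 5 h and 12 h on plates coated with anti-CD3 at 10 µg/mL, with anti-CD28 at 5 µg/mL in the medium. These antibodies engage the T cell receptor complex and its costimulatory receptor. All 9 libraries come from 1 clone of a leukaemia line. The libraries include no unstimulated cultures of the same age as the activated ones, so the antibodies' effect and that of the hours on the plate cannot be told apart.

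Secreted and membrane proteins fold in the ER with the help of chaperones, lectins, disulfide enzymes and proline isomerases. Proteins that fail to fold are drawn back to the cytosol and destroyed by the proteasome, a route called ER-associated degradation. Unfolded protein in the ER is sensed by IRE1 (ERN1), PERK (EIF2AK3) and ATF6. IRE1 splices the XBP1 transcript into the form that encodes an active factor, PERK slows translation and favours that of ATF4, and cleaved ATF6 enters the nucleus. XBP1 and ATF6 then raise chaperone and degradation genes. The counts are per gene, so spliced and unspliced XBP1 transcripts were not separated here, and sensor activity was not measured.

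Total counts ran from 4222258 (12 h, replicate 1) to 9359187 (12 h, replicate 2). All 12 T cell markers had a mean over 1 CPM across the 9 libraries, summing to 5891 to 6914 CPM at 0 h, 6079 to 7096 at 5 h and 5895 to 6819 at 12 h. Single T cell markers moved: 3 were higher and 4 lower at 5 h (58.3% called, against 49.7% of all genes tested). At 0 h, 5 h and 12 h CD3D averaged 1052, 1054 and 1001 CPM, CD3G 744, 356 and 337, and CD5 239, 732 and 628. Of 12 B and plasma cell markers 4 passed 1 CPM, their summed level was 168 to 209.9 CPM at 0 h, 101 to 129 at 5 h and 141 to 165 at 12 h, and most of it was CD79A (177, 101 and 142 CPM). CD22 and TNFRSF17 were at 0 in every library. Of 10 myeloid markers only LYZ passed 1 CPM, with the whole list summing to 1.89 to 3.31 CPM over the 9 libraries, and CD163, FCGR1A and S100A8 were at 0. Of 9 fibroblast and epithelial markers COL1A1 and KRT8 passed it, with sums of 2.94 to 7.85 CPM, and COL1A2, COL3A1 and EPCAM were at 0. CPM, the usual count scaled for depth, used library sizes adjusted by the trimmed mean of M values (TMM).

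The promoters of these genes are where the ER stress element was first defined, a CCAAT box spaced from a CCACG that ATF6 and XBP1 are known to bind next to the factor NF-Y. The element was searched as CCAAT, any 9 bases, then CCACG, on both strands, in the RefSeq promoter table (GRCh38.p14), from 250 bases before to 50 after each annotated start. Copies that differ in a fixed letter or lie outside these bases were not counted. An exact match was in the promoters of 8 of the 36 genes that the table holds (22.2%), against 25 of all 27305 genes (0.0916%) and 27 of all 35116 promoters (0.0769%). Since such genes served to define the element, this share is not independent evidence. The windows that hold it are shown because the genes that share these letters did not change in 1 direction, with the fixed letters in capitals, 5′ to 3′ on the strand that carries the element.
HSPA5, chr9:125241386-125241414, minus strand: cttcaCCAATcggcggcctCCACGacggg
HSP90B1, chr12:103930211-103930239, plus strand: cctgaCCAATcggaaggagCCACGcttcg
HSP90B1, chr12:103930316-103930344, minus strand: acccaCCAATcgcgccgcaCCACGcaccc
PDIA6, chr2:10812848-10812876, minus strand: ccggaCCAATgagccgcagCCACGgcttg
ERO1B, chr1:236282178-236282206, plus strand: ggcggCCAATgaggcgggaCCACGcgggc
CALR, chr19:12938379-12938407, minus strand: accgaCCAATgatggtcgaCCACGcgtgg
XBP1, chr22:28800598-28800626, minus strand: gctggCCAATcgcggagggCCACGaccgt
CANX, chr5:179698773-179698801, plus strand: cccggCCAATcttcacactCCACGaagaa
CRELD2, chr22:49918549-49918577, minus strand: atggcCCAATccgagttcgCCACGagagg

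A shorter relative, ER stress element II, was searched as ATTGG, any 1 base, then CCACG, on both strands. It was in the promoters of 3 of the 36 genes (8.33%), against 19 of all 27305 genes (0.0696%) and 19 of all 35116 promoters (0.0541%). HYOU1 carried it at 2 places. The genes were listed for their part in this response, so the share of 8.33% is not independent evidence either. These windows are printed in the same way, since their genes also moved differently.
HYOU1, chr11:119057375-119057395, plus strand: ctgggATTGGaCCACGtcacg
HYOU1, chr11:119057269-119057289, plus strand: tactcATTGGaCCACGtccca
HERPUD1, chr16:56932020-56932040, plus strand: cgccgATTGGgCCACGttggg
SDF2L1, chr22:21642109-21642129, minus strand: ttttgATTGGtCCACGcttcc

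The UPR element TGACGTGG was in the promoter of 1 of the 36 genes (2.78%), HYOU1, against 0.927% of all genes and 0.729% of all promoters. In HYOU1 it overlaps the first of the element II windows above. The amino acid response element TGATGCAA, bound by ATF4, was in that of 1 gene (2.78%), HERPUD1, against 1.08% of all genes and 0.866% of all promoters. A match is a description, not a bound site or a cause, and binding was not measured here.

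Within 5 h the ER chaperones HSP90B1 (3.61-fold) and HSPA5 (3.16-fold) rose the most of the 38 genes. The sensors ERN1 and EIF2AK3 and the oxidase ERO1B also rose more than 2-fold. The change was not shared by all: calreticulin, XBP1, ATF6B, ERO1A and EDEM3 fell. Of the 38 genes, 23 passed the test at 5 h against 0 h (60.5%, against 49.7% of all 12036 genes tested). Of these, 15 were higher (39.5%, against 24.9% of all genes) and 8 were lower (21.1%, against 24.8%). A rise of at least 2-fold was called for 5 (5.51% of all genes) and a fall of that size for 0 (6.43%), the lowest log2 value being -0.61 for ATF6B. Their median log2 fold change was 0.05, against 0.00 over all genes. The 3 libraries of each group did not overlap for 24 of the 38 genes (63.2%, against 58.6% of all genes). The number lower fell to 5 without 0 h replicate 3 and to 4 without 5 h replicate 1. Bulk counts are shares of each library's RNA, and in them fewer cells of a type and less RNA per cell cannot be told apart.

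By 12 h the picture was mixed. HSP90B1, ERN1 and ERO1B were still at least 2-fold above 0 h, while HSPA5 differed from 0 h by -0.13 ± 0.11 on the log2 scale (SE) and did not pass the test. XBP1 and calreticulin were further below 0 h than at 5 h. Of the 38 genes, 19 passed the test at 12 h against 0 h (50%, against 51.1% of all genes), 10 higher (26.3%, the same share as all genes, 26.3%) and 9 lower (23.7%, against 24.8%). A rise of at least 2-fold was called for 3 (5.83% of all genes) and a fall of that size for 0 (6.13%), with XBP1 the nearest at -0.97. The libraries did not overlap for 20 genes (52.6%, against 56.2% of all genes), and the median log2 change was -0.08. On total counts with no scaling factor the split was 10 higher and 15 lower, and without 12 h replicate 1 the number lower was 14. The 12 h and 5 h comparisons share the 0 h libraries, so their values are given side by side and not as support for each other.

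Between the activated groups the fall was the more frequent direction. At 12 h against 5 h, 18 of the 38 genes passed the test (47.4%, against 36.1% of all genes), 14 lower (36.8%, against 18% of all genes) and 4 higher (10.5%, against 18.1%). HSPA5 was the 1 gene lower by at least 2-fold (2.24% of all genes), and 0 were higher by that much (2.08%), with WFS1 the nearest at 0.93. The libraries did not overlap for 18 genes (47.4%, against 44.9%). The number higher was 2 without 5 h replicate 1 and also 2 without 12 h replicate 1. The 11 genes that passed in none of the 3 comparisons (28.9%, against 29.1% of all genes) were ATF6, HSPA13, DNAJB9, CRELD2, CANX, P4HB, PPIB, SYVN1, EDEM2, SEC61A1 and SEC61B. Of these, ATF6, DNAJB9 and SEC61B passed under no alternative either, and the other 8 passed under at least 1.

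**Figure D1:**
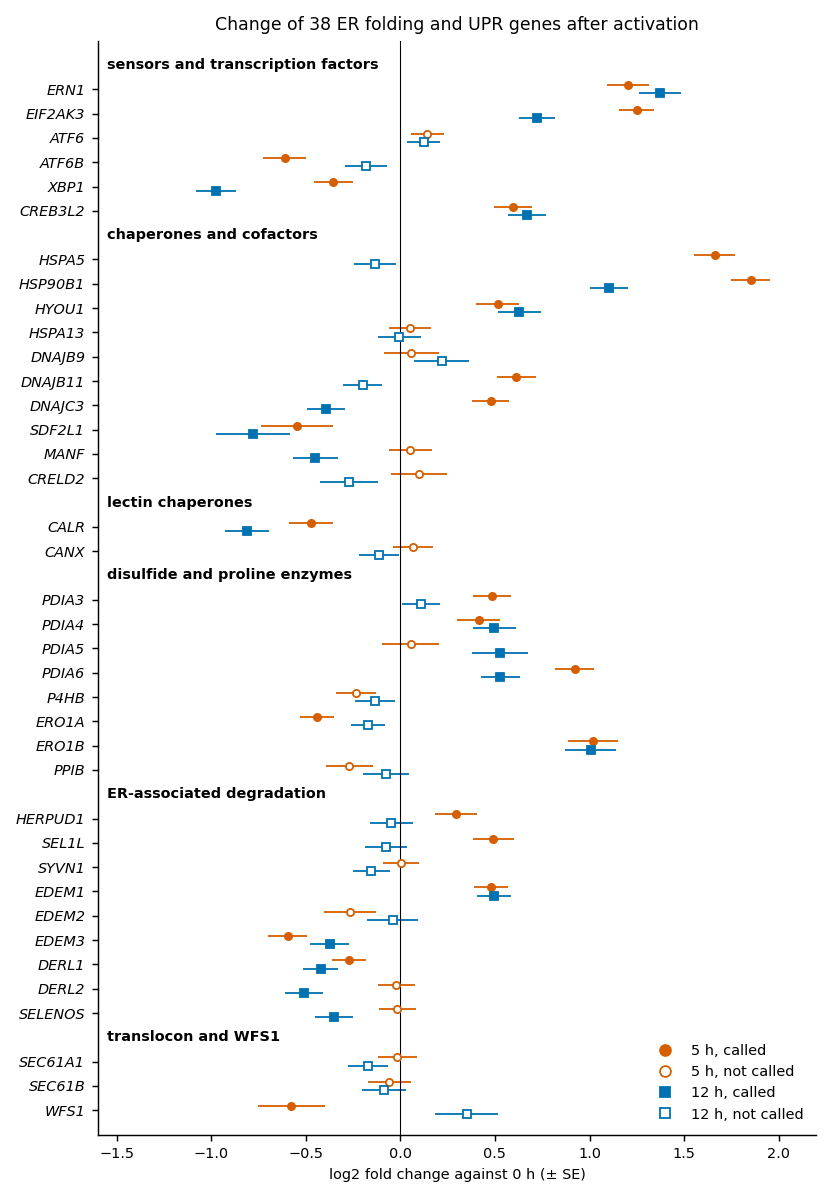
Log2 fold change against 0 h (x axis, bars are 1 SE) of the 38 genes, grouped by role on the y axis, at 5 h (circles) and 12 h (squares), filled where adjusted p was under 0.05. HSP90B1 and HSPA5 have the highest values at 5 h (1.85 and 1.66), and XBP1 has the lowest at 12 h (-0.97).

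Among the 6 sensors and transcription factors, the 2 ER kinases rose and XBP1 fell. At 5 h 3 were higher and 2 lower, at 12 h 3 were higher and 1 lower, and from 5 h to 12 h 1 was higher and 2 were lower. That is 83.3%, 66.7% and 50% called, against 49.7%, 51.1% and 36.1% of all genes. ERN1 encodes IRE1, the kinase and endoribonuclease that splices XBP1 (chromosome 17, 64039142 to 64130819, GRCh38, minus strand). The 0 h libraries held 46.4, 44.5 and 53.9 CPM of it, those of 5 h 116, 105 and 113, and those of 12 h 146, 126 and 106. All 6 activated libraries lay above the 3 at 0 h, and the 5 h and 12 h libraries overlapped. The log2 fold change was 1.20 ± 0.11 at 5 h (adjusted p = 2.02e-08) and 1.37 ± 0.11 at 12 h (adjusted p = 3.35e-09), and the step between them, 0.17 ± 0.11, did not pass (adjusted p = 0.223).

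EIF2AK3 encodes PERK, which phosphorylates the translation factor eIF2 alpha (chromosome 2, 88556741 to 88627576, minus strand). It was at 46.9, 51.7 and 55.4 CPM at 0 h, 122, 124 and 119.9 at 5 h, and 88.1, 88.3 and 77.6 at 12 h. The 3 groups did not overlap, with 12 h in between. It rose by 1.25 ± 0.09 at 5 h (adjusted p = 6.87e-10), was 0.72 ± 0.10 above 0 h at 12 h (adjusted p = 2.87e-06), and fell by 0.53 from 5 h to 12 h (SE 0.09, adjusted p = 0.000167).

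XBP1, the substrate of IRE1 and the factor of its branch (chromosome 22, 28794555 to 28800597, minus strand), went the other way. Its counts were 214, 218 and 250.3 CPM at 0 h, 158, 194 and 182 at 5 h, and 133, 113 and 104 at 12 h. Each group lay wholly below the one before. The log2 change was -0.35 ± 0.10 at 5 h (adjusted p = 0.00688) and -0.97 ± 0.10 at 12 h, a level 0.509 times that at 0 h (adjusted p = 1.76e-07). Without 5 h replicate 1, the lowest of its group, the 5 h value was -0.27 and did not pass (adjusted p = 0.0525).

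The ATF6 pair also split. ATF6, the membrane-bound factor, averaged 197 ± 9.48 CPM at 0 h, 217 ± 2.84 at 5 h and 215 ± 21.9 at 12 h (SD, n = 3), with log2 values of 0.14 and 0.12 that did not pass. Its paralogue ATF6B was at 115, 119 and 136 CPM at 0 h, 64.4, 93.0 and 83.7 at 5 h, and 111, 111 and 103 at 12 h. The 5 h libraries lay below the other 6, so ATF6B fell by 0.61 at 5 h (SE 0.11, adjusted p = 0.000128) and rose by 0.43 ± 0.11 from there to 12 h (adjusted p = 0.00601). Exons of ATF6B overlap another coding gene on its own strand, so its reads may be shared. CREB3L2, an ER-anchored factor related to ATF6, rose from 49.2 ± 3.74 CPM to 74.5 ± 1.98 at 5 h and was at 78.7 ± 7.50 at 12 h, with log2 values of 0.60 and 0.67 (adjusted p = 4.45e-05 and 1.16e-05).

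Of the 10 chaperones and their cofactors, 5 rose and 1 fell at 5 h, 2 were higher and 3 lower at 12 h, and 5 were lower at 12 h than at 5 h. In either direction 60%, 50% and 50% were called, against 49.7%, 51.1% and 36.1% of all genes. HSPA5 encodes BiP (GRP78), the Hsp70 of the ER, which also holds the sensors inactive (chromosome 9, 125234853 to 125241330, minus strand). Its level was 593, 565 and 675 CPM at 0 h, 1838, 1945 and 2016 at 5 h, and 648, 560.0 and 464 at 12 h. The 5 h libraries stood apart from all others, and those of 0 h and 12 h overlapped. The log2 fold change was 1.66 ± 0.11 at 5 h (adjusted p = 9.35e-11) and -1.80 ± 0.11 from 5 h to 12 h (adjusted p = 2.36e-10). At 12 h against 0 h the adjusted p was 0.313, and without 12 h replicate 1 it was 0.0351 with a log2 value of -0.26.

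HSP90B1 encodes GRP94, the Hsp90 of the ER, whose clients include integrins and Toll-like receptors (chromosome 12, 103930107 to 103953645, plus strand). Its counts were 762, 697 and 822 CPM at 0 h, 2785, 2624 and 2826 at 5 h, and 1855, 1617 and 1432 at 12 h. Unlike for HSPA5, the 12 h libraries lay wholly above the 0 h ones. It rose by 1.85 ± 0.10 at 5 h (adjusted p = 6.15e-12), was 1.10 ± 0.10 above 0 h at 12 h, or 2.15-fold (adjusted p = 1.99e-08), and fell by 0.75 between 5 h and 12 h (SE 0.10, adjusted p = 1.14e-05). Its exons overlap those of a coding gene on the other strand, and whether the counting used strand is not given in the sources used here.

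The cofactors of BiP did not move as 1 group. DNAJB11 and DNAJC3 are J-domain proteins that deliver substrates to BiP, and DNAJC3 is also known as an inhibitor of PERK. DNAJB11 was at 158, 144 and 182 CPM at 0 h, 217, 246 and 279 at 5 h and 148, 141 and 133 at 12 h, a rise of 0.61 ± 0.10 at 5 h (adjusted p = 4.79e-05) and a fall by 0.81 afterwards (SE 0.10, adjusted p = 5.74e-06). DNAJC3 was at 107, 97.2 and 118 CPM, then 143, 154 and 152, then 93.7, 78.5 and 75.1. Its 12 h libraries lay below those of 0 h as well as those of 5 h: it rose by 0.48 ± 0.10 at 5 h (adjusted p = 0.000381) and was 0.39 below 0 h at 12 h, where the log2 value was -0.39 ± 0.10 (adjusted p = 0.00265). DNAJB9, also a J-domain protein, averaged 15.6, 16.2 and 18.3 CPM and passed in no comparison.

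HYOU1, the large Hsp70-like protein that exchanges the nucleotide of BiP, averaged 392 ± 48.5 CPM at 0 h, 559 ± 38.7 at 5 h and 606 ± 94.7 at 12 h. Its rise was of similar size at both times, 0.51 ± 0.11 (adjusted p = 0.000726) and 0.63 ± 0.11 (adjusted p = 9.58e-05), and 12 h did not differ from 5 h beyond the spread (0.11 ± 0.11, adjusted p = 0.449). SDF2L1, which keeps J-domain proteins in a soluble complex, was lower: 14.1, 14.6 and 18.7 CPM at 0 h, 7.67, 13.2 and 11.4 at 5 h and 8.54, 8.40 and 10.7 at 12 h. Its log2 change was -0.55 ± 0.19 at 5 h (adjusted p = 0.0209), which did not pass without 0 h replicate 3 or without 5 h replicate 1 (adjusted p = 0.127 in both), and -0.78 ± 0.20 at 12 h (adjusted p = 0.00231).

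MANF, a small secreted protein that binds BiP, stayed within its spread at 5 h (95.6 ± 9.28 and 99.2 ± 13.6 CPM) and fell to 69.4 ± 10.3 at 12 h, a log2 change of -0.45 ± 0.12 against 0 h (adjusted p = 0.00324). HSPA13 averaged 131, 136 and 132 CPM, and its log2 changes from 0 h were 0.05 and -0.01. CRELD2, another ER resident protein with stress element letters in its promoter, averaged 30.2, 32.5 and 24.7 CPM and passed in no comparison, with a log2 value of -0.37 ± 0.15 from 5 h to 12 h (adjusted p = 0.0631) that was called under 5 alternatives, the replicate block and limma among them (adjusted p = 0.0263 to 0.049).

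**Figure D2:**
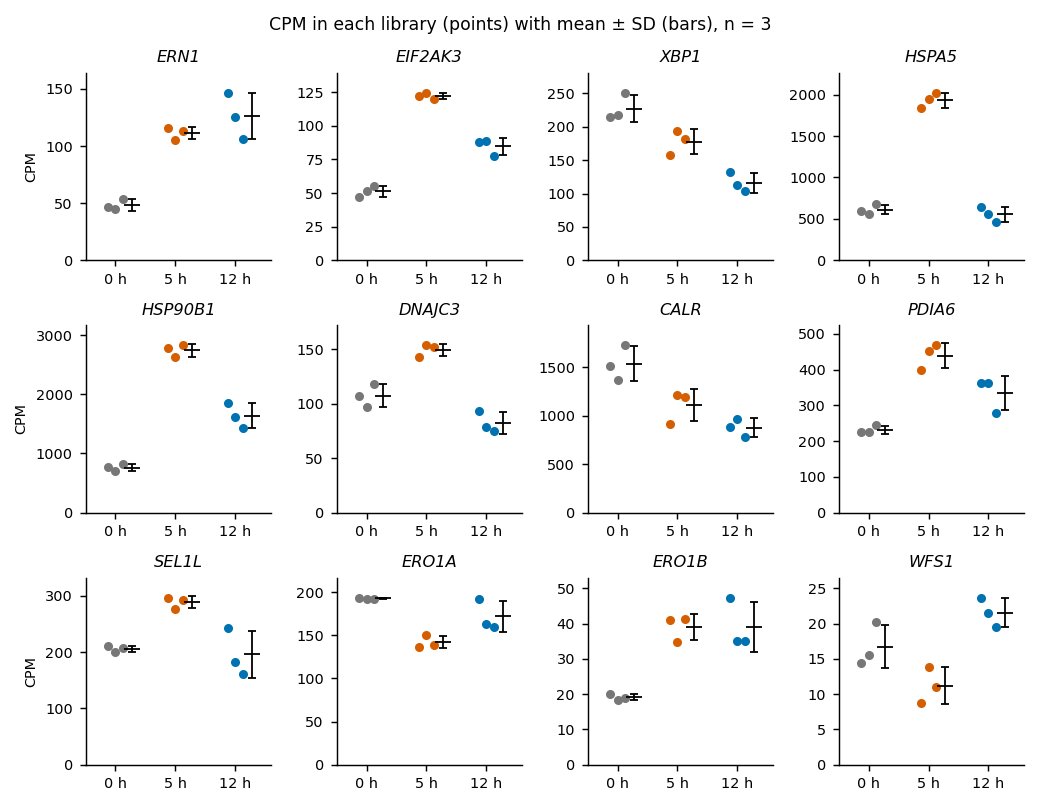
Level (y axis, CPM from 0) of 12 of the genes in each library at 0 h, 5 h and 12 h (x axis), with the mean and SD of 3 libraries as bars. HSPA5 is at 1838 to 2016 CPM in the 5 h libraries and at 464 to 675 in all others, while XBP1 steps down from 0 h to 12 h.

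The 2 lectin chaperones, which hold glycoproteins during folding, differed from each other. Calreticulin (CALR), the soluble one (chromosome 19, 12938578 to 12944489, plus strand), was at 1516, 1372 and 1725 CPM at 0 h, 917, 1212 and 1192 at 5 h, and 881, 970.1 and 778 at 12 h. All activated libraries lay below those of 0 h, and the 5 h and 12 h libraries overlapped. CALR fell by 0.47 at 5 h (SE 0.12, adjusted p = 0.00185) and by 0.81 at 12 h (SE 0.12, adjusted p = 7.19e-06). From 5 h to 12 h the log2 change was -0.34 ± 0.12 (adjusted p = 0.0275), which was lost without 5 h replicate 2, 5 h replicate 3 or 12 h replicate 3 (adjusted p = 0.117 to 0.135). Calnexin (CANX), its membrane-bound relative, averaged 989 ± 83.0, 1035 ± 56.9 and 915 ± 146 CPM and passed in no comparison (log2 0.07 ± 0.11 at 5 h and -0.11 ± 0.11 at 12 h).

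Among the 8 enzymes of disulfides and proline bonds, 4 rose and 1 fell at 5 h, 4 were higher at 12 h, and 2 were higher and 2 lower at 12 h than at 5 h. Calls in either direction made up 62.5%, 50% and 50%, against 49.7%, 51.1% and 36.1% of all genes. PDIA6, a protein disulfide isomerase that is also known to act on IRE1, was at 226, 226 and 244 CPM at 0 h, 399, 451 and 468 at 5 h, and 363, 362 and 279 at 12 h. The 3 groups did not overlap. It rose by 0.92 ± 0.10 at 5 h, or 1.89-fold (adjusted p = 2.53e-07), and was still 0.53 ± 0.10 above 0 h at 12 h (adjusted p = 0.000229), after a fall by 0.39 (SE 0.10, adjusted p = 0.00512).

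The other disulfide isomerases kept separate time courses. PDIA3, which works with the lectin chaperones, was at 407, 394 and 439 CPM at 0 h, 561, 595 and 581 at 5 h and 497, 472 and 371 at 12 h, so that 12 h overlapped 0 h. It rose by 0.49 ± 0.10 at 5 h (adjusted p = 0.000399), and its 12 h value of 0.11 ± 0.10 did not pass (adjusted p = 0.372) except without 12 h replicate 3 (0.23, adjusted p = 0.0461). PDIA4 averaged 282 ± 37.6, 376 ± 46.6 and 398 ± 49.1 CPM, with log2 values of 0.41 at 5 h (adjusted p = 0.00481, although 1 library of 5 h lay under the highest at 0 h) and 0.50 at 12 h (adjusted p = 0.00109). PDIA5 was high at 12 h alone among these means, 25.5 ± 2.15, 26.5 ± 5.55 and 37.3 ± 5.83 CPM, a rise of 0.53 ± 0.15 over 0 h (adjusted p = 0.00534). The founding member, P4HB (PDI), averaged 478, 406 and 436 CPM and passed in no comparison, and at 5 h its log2 value was -0.24 ± 0.11 (adjusted p = 0.0686), which was called lower under 5 alternatives (adjusted p = 0.00848 to 0.0463).

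The 2 oxidases that pass electrons from disulfide isomerases to oxygen moved in opposite directions at 5 h. ERO1A (chromosome 14, 52639916 to 52695900, minus strand) was at 194, 193 and 192 CPM at 0 h, 137, 149.9 and 139 at 5 h, and 193, 163 and 159 at 12 h. It fell by 0.44 at 5 h (SE 0.09, adjusted p = 0.000336), and its 12 h libraries overlapped those of 0 h (-0.17 ± 0.09, adjusted p = 0.112), although it was called lower there on total counts, by upper quartile scaling and without 12 h replicate 1 (adjusted p = 0.0111 to 0.0318). The rises of ERO1A (0.27 ± 0.09) and PDIA5 (0.48 ± 0.15) from 5 h to 12 h, with adjusted p = 0.0233 and 0.0172, were each lost without 5 h replicate 1 and without 12 h replicate 1. ERO1B (chromosome 1, 236215555 to 236281985, minus strand) was at 20.1, 18.4 and 19.0 CPM at 0 h, 40.9, 34.7 and 41.2 at 5 h, and 47.3, 35.1 and 34.9 at 12 h. All 6 activated libraries lay above 0 h, with log2 values of 1.02 ± 0.13 (adjusted p = 2.44e-06) and 1.01 ± 0.13 (adjusted p = 3.27e-06). PPIB (cyclophilin B), the proline isomerase of the group, averaged 309, 256 and 293 CPM and passed in no comparison (log2 -0.27 ± 0.12 at 5 h, adjusted p = 0.0737), but it was called lower at 5 h under 7 of 14 alternatives, the replicate block among them (adjusted p = 0.013 to 0.0426).

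Of the 9 genes of ER-associated degradation, 3 rose and 2 fell at 5 h, 1 was higher and 4 lower at 12 h, and 4 were lower at 12 h than at 5 h. The called part was 55.6%, 55.6% and 44.4%, against 49.7%, 51.1% and 36.1% of all genes. SEL1L is the scaffold of the ubiquitin ligase HRD1, which SYVN1 encodes. SEL1L was at 210.3, 199.7 and 207 CPM at 0 h, 297, 277 and 293 at 5 h, and 243, 183 and 162 at 12 h. It stood apart at 5 h (0.49 ± 0.11, adjusted p = 0.000914) and its 12 h libraries lay on both sides of 0 h (-0.08 ± 0.11, adjusted p = 0.582), although without 12 h replicate 1, the highest, they were called lower (-0.26, adjusted p = 0.0199). SYVN1 averaged 77.5 ± 1.74, 77.6 ± 7.20 and 70.0 ± 6.44 CPM and passed in no comparison.

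The mannosidase-like EDEM proteins, which mark misfolded glycoproteins for removal, split by member. EDEM1 was at 460.0, 504 and 500.1 CPM at 0 h, 689, 679 and 675 at 5 h, and 764, 673 and 625 at 12 h, above 0 h in all 6 activated libraries, with log2 values of 0.48 ± 0.09 and 0.49 ± 0.09 (adjusted p = 0.000164 and 0.000122). EDEM3 was at 149, 152 and 152 CPM at 0 h, 95.9, 101 and 102 at 5 h, and 141, 103 and 108 at 12 h, and it fell by 0.60 at 5 h (SE 0.10, adjusted p = 5.71e-05) and by 0.38 at 12 h (SE 0.10, adjusted p = 0.00411). EDEM2 averaged 34.9, 29.02 and 33.3 CPM and passed in no comparison.

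HERPUD1, a membrane protein that gathers the HRD1 complex, averaged 53.1 ± 7.31 CPM at 0 h, 65.0 ± 4.72 at 5 h and 51.5 ± 4.64 at 12 h. Its rise of 0.29 ± 0.11 at 5 h (adjusted p = 0.0354) rested on overlapping libraries and was lost under 7 alternatives, the DESeq2 Wald test among them (adjusted p = 0.0539 to 0.217). Its fall by 0.34 from 5 h to 12 h (SE 0.11, adjusted p = 0.0241) was lost without 5 h replicate 1, 5 h replicate 2 or 12 h replicate 3. The derlins, channel-like proteins of retrotranslocation, and their partner SELENOS were lower at 12 h. DERL1 averaged 209 ± 16.5, 173 ± 9.09 and 157 ± 14.7 CPM, with log2 values of -0.27 ± 0.09 at 5 h (adjusted p = 0.0181) and -0.42 ± 0.09 at 12 h (adjusted p = 0.000724). The 5 h call of DERL1 was lost without 0 h replicate 3, 5 h replicate 1 or 5 h replicate 3 (adjusted p = 0.0673 to 0.0947). DERL2 (80.0 ± 5.67, 78.8 ± 1.94 and 56.8 ± 7.14 CPM) and SELENOS (56.3 ± 3.63, 55.7 ± 1.03 and 44.3 ± 2.03 CPM) were level at 5 h, with log2 values of -0.02 each that did not pass, and fell by 0.51 and by 0.35 at 12 h (adjusted p = 0.000281 and 0.00532).

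The translocon subunits gave no call. SEC61A1, the pore through which nascent chains enter the ER, averaged 391, 387 and 348 CPM, and SEC61B averaged 54.1, 51.9 and 50.6 CPM. WFS1 (wolframin), an ER membrane glycoprotein tied to calcium handling and lost in Wolfram syndrome, was at 14.4, 15.5 and 20.2 CPM at 0 h, 8.72, 13.9 and 11.0 at 5 h, and 23.7, 21.5 and 19.5 at 12 h. Its 5 h libraries were the lowest and those of 12 h overlapped 0 h, from which they differed by 0.35 ± 0.17 (adjusted p = 0.0838) or, without 0 h replicate 3, by 0.51 (adjusted p = 0.0252). WFS1 fell by 0.58 at 5 h (SE 0.18, adjusted p = 0.0104), which did not pass without 0 h replicate 3 or 5 h replicate 1 (adjusted p = 0.065 to 0.0865), and rose by 0.93 ± 0.18 from 5 h to 12 h (adjusted p = 0.000406).

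Set beside the promoter letters, the same element stood before genes that rose, fell or passed no test. Of the 8 genes with the ER stress element, HSPA5, HSP90B1, PDIA6 and ERO1B were higher at 5 h, CALR and XBP1 were lower, and CANX and CRELD2 were not called. Of the 28 genes in the promoter table without an exact match in the bases searched, 10 were higher, 5 lower and 13 not called (of all genes 24.9% were higher and 24.8% lower). Such genes may still hold imperfect or more distant copies. At 12 h against 0 h, 3 of the 8 were higher, 2 lower and 3 not called, and of the 28 others 7 were higher, 6 lower and 15 not called (26.3% and 24.8% of all genes). At 12 h against 5 h, 5 of the 8 were lower and 3 not called, while of the 28 others 8 were lower, 4 higher and 16 not called (18% of all genes were lower and 18.1% higher). The median log2 change at 5 h was 0.51 with the element and 0.05 without an exact match. The value of 0.51 lies in a gap between the 4 higher genes, at 0.92 or more, and the others with the element, at 0.10 or less. Against 0 h the 12 h medians were -0.12 and -0.08, and from 5 h to 12 h they were -0.38 and -0.00. These medians were not tested. The place of the element varied too: its first base lay 66 bases before the annotated start in HSPA5 (position -66), at -52 in XBP1, at -225 in CALR and at -243 in ERO1B, while HSP90B1 carried copies at -194 and -89. Among the element II genes, HYOU1 was higher at both times, SDF2L1 lower at both, and HERPUD1 higher at 5 h with the limits given above.

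**Figure D3:**
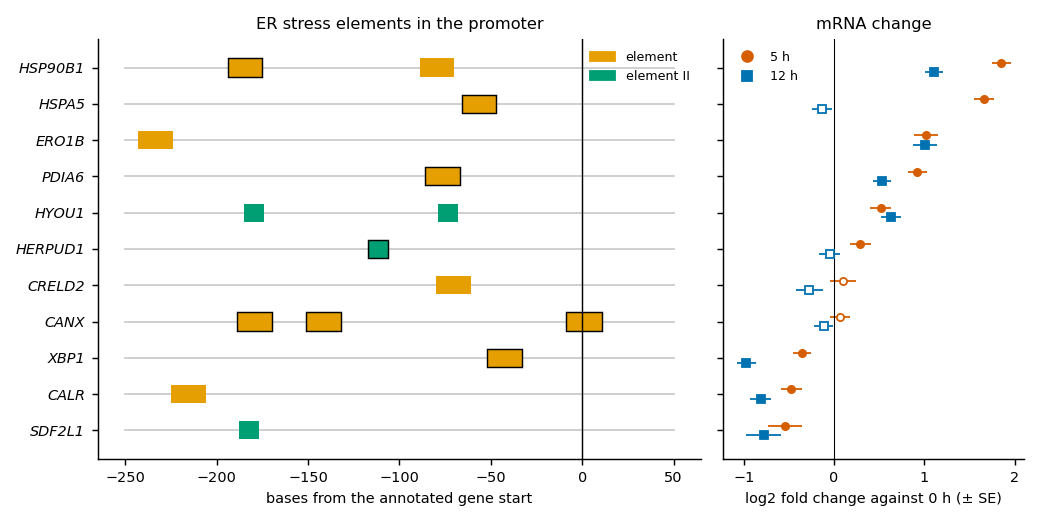
Left, place of the ER stress element and of element II in bases from the annotated start (x axis) for 11 genes, outlined where the element lies on the gene's own strand, with the 3 marks of CANX being 1 site seen from 3 annotated starts. Right, log2 fold change against 0 h (bars are 1 SE, filled where called), where the 11 genes run from 1.85 (HSP90B1) to -0.55 (SDF2L1) at 5 h.

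Summed over the 38 genes, the level rose at 5 h and came back by 12 h, and HSPA5 and HSP90B1 made up most of the difference. The sum was 9062, 8755 and 10120.5 CPM at 0 h, 12430.4, 13335 and 13585 at 5 h, and 10763, 9970.7 and 8619 at 12 h. The 5 h libraries were the highest, and those of 12 h spanned the 0 h range. HSPA5 and HSP90B1 together took 14.7 ± 0.277% of the sum at 0 h, 35.7 ± 1.46% at 5 h and 22.4 ± 0.778% at 12 h (SD, n = 3). Without them the other 36 genes summed to 7941 ± 600.3 CPM, 8439 ± 547 and 7592 ± 788, ranges that overlapped. By role, the chaperones went from 2320.2 to 5929 and 3275 CPM on average, and the lectin chaperones from 2526.5 to 2142 and 1791. These sums are a description with no test.

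**Figure D4:**
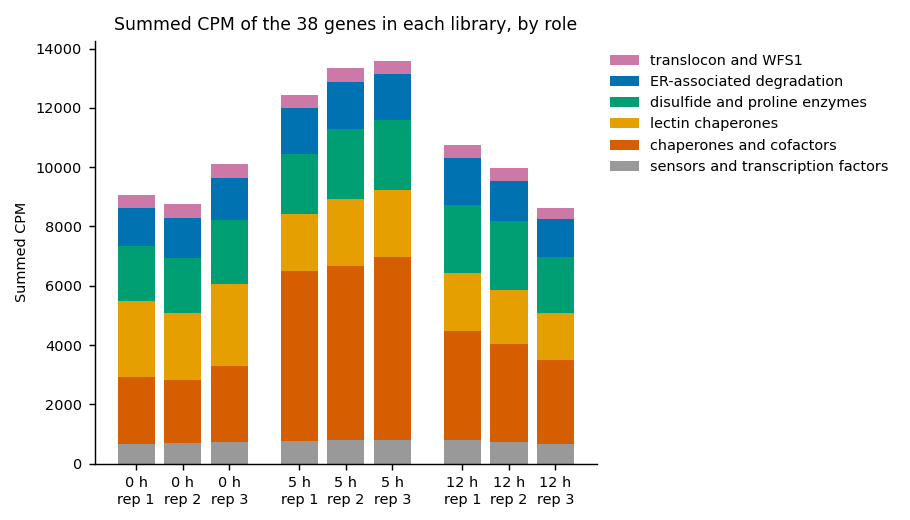
Summed CPM (y axis, from 0) of the 38 genes in each of the 9 libraries (x axis), stacked by role. The chaperone layer widens most at 5 h, from a mean of 2320.2 to 5929 CPM, while the lectin layer narrows from 2526.5 to 2142.

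Levels of different genes were compared as CPM per kilobase of the longest coding transcript of the gene. On that scale CALR came first at 0 h with 808 CPM per kb, followed by PPIB (286) and HSP90B1 (266), which did not differ beyond their spread. Such an order depends on the transcript taken. For HSP90B1 the longest has 2858 bases and the median length is 1338, while for PPIB both are 1081. HSPA5 had 156 CPM per kb. At 5 h HSP90B1 led with 960.5 CPM per kb, then CALR (582 ± 86.5) and HSPA5 (495 ± 23.0), whose libraries overlapped. At 12 h the order of the means was HSP90B1 (572 ± 74.3), CALR (461 ± 50.6) and PPIB (271 ± 31.3), with HSPA5 at 143. There the libraries of HSP90B1 and CALR overlapped, as did those of PPIB and CANX (215 ± 34.4). Within each library CALR was above HSPA5 at 5 h, and HSP90B1 was above CALR at 12 h. Of the sensors, ATF6 was at 26.3, 29 and 28.7 CPM per kb, rank 22 of 38 at each time, EIF2AK3 at 11.1, 26.3 and 18.2, and ERN1 at 6.13, 14.1 and 16.0. ERO1B had the lowest mean of all 38 at 0 h (4.196 ± 0.186 CPM per kb), but its libraries overlapped those of WFS1 (4.60 ± 0.847).

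Ratios within each library moved with these shifts. HSPA5 stood at 0.194 ± 0.00574 of CALR at 0 h, 0.860 ± 0.102 at 5 h and 0.31 ± 0.0419 at 12 h, per kb. HSP90B1 was 1.70 ± 0.0489 times HSPA5 at 0 h, 1.95 ± 0.116 at 5 h and 4.03 ± 0.167 at 12 h, so that the pair drew apart at 12 h. ERO1A was 8.71 ± 0.359 times ERO1B at 0 h, 3.18 ± 0.476 at 5 h and 3.83 ± 0.273 at 12 h. ERN1 per XBP1 went from 0.0498 ± 0.00159 to 0.149 ± 0.0226 and 0.254 ± 0.0118. The level of such a ratio depends on the transcript taken: with the median length of the coding transcripts, HSP90B1 to HSPA5 was 3.64, 4.15 and 8.61.

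**Figure D5:**
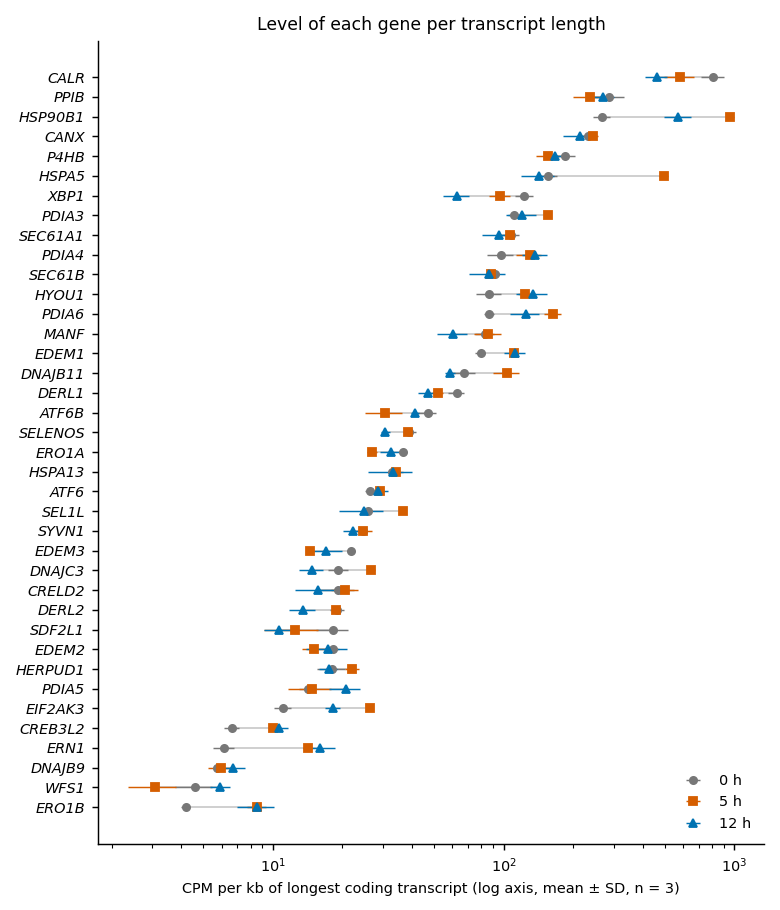
Level of each of the 38 genes as CPM per kb of its longest coding transcript (log x axis, mean and SD of 3 libraries) at 0 h, 5 h and 12 h, ordered on the y axis by the 0 h mean. HSP90B1 moves from behind CALR to the highest place at 5 h with 960.5 CPM per kb, and HSPA5 reaches 495.

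The wider pathway, read from 7 lists of other genes, did not move in 1 direction. Of 16 genes of the PERK branch and the integrated stress response, 6 were higher and 3 lower at 5 h, 11 higher and 1 lower at 12 h, and 9 higher and 1 lower at 12 h than at 5 h. The shares called, 56.2%, 75% and 62.5%, stand beside 49.7%, 51.1% and 36.1% of all genes. By direction, 24.9%, 26.3% and 18.1% of all genes were higher and 24.8%, 24.8% and 18% lower. Their median log2 change was 0.24 at 5 h and 0.57 at 12 h, against 0.00 and -0.00 over all genes. DDIT3 (CHOP), the factor linked to death under ER stress, rose from 9.01 ± 1.08 CPM to 26.7 ± 3.29 at 5 h (log2 1.57 ± 0.15, adjusted p = 3.65e-08), and PPP1R15A (GADD34), which reverses the PERK signal, rose by 1.32 ± 0.19. VLDLR, a lipoprotein receptor known as an ATF4 target, was at 33.0, 34.4 and 94.6 CPM on average and 1.51 ± 0.13 above 0 h at 12 h. CHAC1, which degrades glutathione, had a log2 value of 1.63 ± 0.40 at 12 h from 1.55 CPM. DDIT4, an inhibitor of mTORC1, was the 1 gene lower at 12 h, from 68.0 to 31.5 CPM, where its log2 value was -1.07 ± 0.14.

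Of 12 tested genes for sensor processing and related factors, 3 were higher and 6 lower at 5 h, and 2 higher and 6 lower at 12 h (75% and 66.7% called, against 49.7% and 51.1% of all genes). NFE2L2 (NRF2), which PERK is known to phosphorylate, rose from 60.9 ± 2.38 to 172 ± 9.09 CPM at 5 h (log2 1.496 ± 0.09, adjusted p = 1.6e-11) and was at 91.5 ± 5.60 at 12 h. RTCB, the ligase that joins the spliced XBP1 exons, rose by 0.52 ± 0.08 at 5 h and was 0.31 ± 0.08 above 0 h at 12 h. The liver-type factor CREB3L3 had a log2 value of -1.41 ± 0.26 at 5 h, from 7.30 CPM.

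Among 29 other folding enzymes, 5 were higher and 10 lower at 5 h, and 7 higher and 8 lower at 12 h (51.7% called at each time, against 49.7% and 51.1% of all genes). MZB1, a cofactor of GRP94 best known in B cells, fell from 105 ± 15.4 to 28.5 ± 3.84 CPM at 5 h (log2 -1.89 ± 0.14, adjusted p = 4.04e-10) and was at 43.2 ± 7.94 at 12 h. The B and plasma marker sum, nearly all of it CD79A, was also lowest at 5 h, while of the 4 markers of that list tested PRDM1 and IRF4 were higher at 5 h, CD79A was lower and EBF1 was not called. Their part in this value was not tested. DNAJC1, another J-domain partner of BiP, rose by 0.76 ± 0.12 at 5 h, and SIL1, a nucleotide exchange factor of BiP, was 1.00 ± 0.17 above 0 h at 12 h. Without 5 h replicate 1 the number of these enzymes called at 5 h fell from 15 to 9.

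Of 23 other genes of ER-associated degradation, 5 were higher and 5 lower at 5 h, and 9 higher and 3 lower at 12 h (43.5% and 52.2% called, against 49.7% and 51.1% of all genes). The conjugating enzyme UBE2J1, which serves HRD1, rose by 0.68 ± 0.09 at 5 h, and FAM8A1, a subunit of the HRD1 complex, fell by 0.80 (SE 0.13). Without 5 h replicate 1 the number called at 5 h fell from 10 to 6.

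Of 24 genes for translocation and signal processing, 6 were higher and 4 lower at 5 h, and 2 higher and 3 lower at 12 h (41.7% and 20.8% called, against 49.7% and 51.1% of all genes). SRPRB, a subunit of the receptor for the signal recognition particle, rose by 0.51 ± 0.12 at 5 h, and SPCS1, a subunit of signal peptidase, fell by 0.55 (SE 0.09). Without 0 h replicate 3 the number called at 5 h fell from 10 to 6.

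Of 28 genes for N-glycan transfer, 2 were higher and 7 lower at 5 h, and 2 higher and 6 lower at 12 h (32.1% and 28.6% called, against 49.7% and 51.1% of all genes). ALG13 rose by 1.09 ± 0.13 at 5 h, and ALG1, which adds the first mannose, had log2 values of -0.77 ± 0.14 at 5 h and -0.91 ± 0.14 at 12 h. The 9 genes called at 5 h became 5 without 0 h replicate 3 and 5 without 5 h replicate 3.

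Of 21 genes of carriers between ER and Golgi, 8 were higher and 3 lower at 5 h, and 9 higher and 2 lower at 12 h (52.4% called at each time, against 49.7% and 51.1% of all genes). The COPII coat subunits SEC24B and SEC24D rose by 0.90 ± 0.11 and 0.79 ± 0.11 at 5 h and were 0.70 ± 0.11 and 0.84 ± 0.11 above 0 h at 12 h. KDELR1, a receptor that returns chaperones to the ER, fell by 0.41 at 5 h (SE 0.09).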

How the data were processed

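The deposited table holds whole-number counts per gene of 9 mRNA libraries. Per the submitters' processing notes, cutadapt, RSEM and DESeq2 were used with GRCh38.p13, and the use of strand is not given in the sources used here. A second deposited table holds log2 values of 12692 genes, which equal log2(count / library factor + 1) within 1e-06 and served only as an alternative in limma 3.58.1.

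The counts were fitted with edgeR 4.0.16 (R 4.3.3), by the quasi-likelihood test with TMM scaling and a low-count filter, over all 9 libraries with 1 coefficient a group. p-values were adjusted by Benjamini and Hochberg over the 12036 genes tested, and a gene was called at an adjusted p under 0.05. Log2 fold changes are given ± SE (their size divided by the root of the test's F) and levels ± SD over n = 3. The script was tested on simulated counts. The labels name 3 biological replicates a group but no separate cultures or days, so the p-values cover no more than library-to-library spread, possibly technical, and the replicate numbers were not used as pairs. Per-kilobase levels used the longest basic coding transcript in GENCODE 29, whose GRCh38 coordinates are printed. Exons of 14 of the 38 genes overlap another coding gene, 4 of them on the same strand (ATF6B, DNAJB11, PDIA5 and SYVN1). Protein sequences were not used here.

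The genes and lists were chosen with earlier results of these data known. Any of the 38 may be named, and of the other lists at most the 2 genes with the largest rise and the 2 with the largest fall per comparison. Alternatives were other scalings, no filter, DESeq2 1.42.0, limma, a fit of only the groups compared, a replicate block and each library left out. Library pairs of a group differed by more than counting error (chi-square per degree of freedom 2.87 to 8.92), and the common biological coefficient of variation was 0.0887.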

Additional observations from a re-analysis of the deposited data

Results flagged for a closer look

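For 18 of the 38 genes the change from 0 h differed between 12 h and 5 h by the edgeR test of that difference, which is the 12 h against 5 h contrast (47.4%, against 36.1% of all 12036 genes tested). The calls of CALR, PDIA5, ERO1A and HERPUD1 were lost without some of the libraries. The sensor EIF2AK3 had a difference of -0.53 on the log2 scale, XBP1 -0.62 and ATF6B 0.43. Among the chaperones and cofactors it was -1.80 for HSPA5, -0.75 for HSP90B1, -0.81 for DNAJB11, -0.87 for DNAJC3 and -0.50 for MANF, and for the lectin CALR it was -0.34. Among the disulfide enzymes it was -0.38 for PDIA3, 0.48 for PDIA5, -0.39 for PDIA6 and 0.27 for ERO1A. In degradation it was -0.34 for HERPUD1, -0.57 for SEL1L, -0.49 for DERL2 and -0.34 for SELENOS, and for WFS1 it was 0.93.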

How the results depend on the processing

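Of the genes called, 18 of 23 at 5 h, 19 of 19 at 12 h and 14 of 18 between 5 h and 12 h were called under all 14 alternatives, and no called gene of the 38 or named from the lists reversed. With each library left out in turn, the number higher was 14 to 15 at 5 h and 10 to 11 at 12 h, and 2 to 5 at 12 h against 5 h. The number lower was 4 to 9, 9 to 14 and 12 to 17. Total counts with no scaling factor gave 15 lower at 12 h and moved the median of all genes to -0.12 at 5 h and -0.11 at 12 h. The remaining alternatives kept each number within 1.5 times. A replicate block gave 15 higher and 9 lower at 5 h, 10 and 9 at 12 h, and 4 and 15 between them. Same-numbered libraries correlated at -0.17 to 0.23 and differently numbered ones at -0.28 to 0.23, so no pairing by number was seen. These values cannot exclude a shared culture or day. In the other lists, leaving out 1 library gave 9 to 14 folding enzymes called at 5 h (15 with all), 6 to 9 for degradation (10), 6 to 9 for translocation (10) and 5 to 8 for N-glycan transfer (9). At 12 h against 5 h it gave 3 to 9 for N-glycan transfer (7), 4 to 7 for carriers (7) and 2 to 4 for sensor processing (5), which was 3 with only the 2 groups fitted and 3 with a replicate block. Taking the median transcript length, chosen after seeing the data as were the list and sum alternatives, moved HSP90B1 to HSPA5 per kb to 3.64, 4.15 and 8.61. Summed levels moved by less than 1 SD under each scaling and each library left out. SDF2L1 and WFS1, with few counts, have SEs of 0.17 to 0.21, which limits the changes that could be called.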
